A study of Mus musculus with 15 samples.

Results

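The comparison set all 10 arrays of foam cells from mice on a western-type diet against the 5 arrays from mice on chow, which together are the 15 arrays of the series. The animals were C57BL/6 mice lacking apolipoprotein E (ApoE-/-), a deletion that the chow controls carry too, and foam cells of the aortic sinus were taken by laser capture. The CHOW group (5 arrays) ate regular chow for 22 weeks. The 2w-WD group (5 arrays) received the western-type diet for 2 weeks, after 20 weeks of chow by the sample labels but between weeks 22 and 24 by the series text, so that its age is uncertain. The 14w-WD group (5 arrays) received the diet for 14 weeks after 8 weeks of chow. The value compared was the mean of the 2w-WD and 14w-WD group means minus the CHOW mean, and the genes of interest were those that lay on the same side of CHOW at both durations. No label says which animal an array came from, and the p-values therefore reflect only how these 15 samples vary, technical variation included.

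Foam cells are macrophages that have taken up lipoprotein cholesterol in the artery wall. They hold it as cholesteryl ester in lipid droplets, break down lipoproteins in lysosomes and export cholesterol through transporters such as ABCA1. Mice without apolipoprotein E clear remnant lipoproteins poorly, form such lesions on chow, and form them faster on a fat- and cholesterol-rich diet. A comparison over both feeding times asks what western diet feeding shares in these cells irrespective of its length.

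Levels are given as log2(intensity + 16), so that a fold is understated for dim genes, and each gene stands for its brightest probe set. Of 18193 genes measured, 11925 had a mean level at or above 5.66, the median of all probe sets, and were tested. The macrophage label was checked on its markers, of which 12 of 14 measured passed the filter, with Itgam and Spi1 below it. Adgre1, which encodes F4/80, had a mean level of 12.81 on the CHOW arrays (SD 0.19, n = 5), of 12.79 after 2 weeks of diet (SD 0.23) and of 12.93 after 14 weeks (SD 0.05). The summed intensity of the macrophage markers, to which the brightest contribute most, ran from 103762 to 126695 over the CHOW arrays, from 92076 to 113900 in 2w-WD and from 108432 to 120989 in 14w-WD. Heart muscle transcripts were present as well, with summed intensities of 2890 to 94977 in CHOW, 71906 to 147370 in 2w-WD and 35080 to 110202 in 14w-WD. Captured tissue is a bulk sample, in which fewer cells of a type and less RNA per cell cannot be told apart. The deleted gene, Apoe, was below the filter, at mean levels of 4.97, 5.01 and 5.34 in the order CHOW, 2w-WD, 14w-WD.

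No gene differed between western diet and CHOW after adjustment. Of the 11925 genes, 0 (0%) passed limma's test at a Benjamini-Hochberg adjusted p under 0.05, and the smallest adjusted p was 0.336. Without adjustment, 726 genes (6.09%) had a p under 0.05: 433 (3.63%) with a higher and 293 (2.46%) with a lower level on western diet. With quantile normalization that balance turned to 365 higher and 408 lower. The pooled log2 difference of all tested genes had a median of 0.01, and its standard error a median of 0.25, so that for a typical gene the 95% interval excluded 0 only from a log2 difference of 0.54 upwards.

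The 2 durations placed most genes on different sides of CHOW. Both means lay above CHOW for 2933 genes (24.6%) and below it for 2408 (20.2%), together 5341 genes (44.8%). Another 4887 genes (41%) were below CHOW at 2 weeks and above it at 14 weeks, and 1697 (14.2%) the reverse. The 2 durations share the CHOW arrays, so a shift of those arrays alone moves both differences together. The groups themselves differed: 1338 genes (11.2%) passed the test of 14w-WD against 2w-WD, 1201 of them (10.1%) higher and 137 (1.15%) lower at 14 weeks, a split that was 669 to 300 with quantile normalization. That number rested on single arrays, running from 164 without 14w-WD replicate 1 to 3536 without 2w-WD replicate 1, and was 0 with the share of bright probe sets of each array in the fit. Per array, the share of bright probe sets (intensity over 100) averaged 21.7% ± 1.84 (SD, n = 5) for CHOW and 22.9% ± 3.07 (n = 10) for western diet, a difference of 1.16 percentage points with an exact two-sided permutation p of 0.453, where 0.000666 is the smallest p the design allows. The 2 durations lay on either side of CHOW in this share, at 20.9% ± 2.86 (SD, n = 5) after 2 weeks of diet and 24.8% ± 1.79 after 14 weeks. Against CHOW alone, 0 genes passed at 2 weeks and 1 gene (0.00839%) at 14 weeks.

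The same-side genes with the smallest p-values are described as values and not as calls. Among higher genes, Gart, which encodes a trifunctional enzyme of purine synthesis, had the smallest p. Its levels were 6.77, 7.04, 6.998, 6.80 and 5.51 on the CHOW arrays, 9.15, 8.38, 8.62, 7.13 and 8.05 in 2w-WD, and 7.88, 8.58, 8.40, 8.46 and 8.10 in 14w-WD. All 10 western diet arrays lay above all 5 CHOW arrays, the nearest being 2w-WD replicate 4. The pooled log2 difference was 1.65 ± 0.32 (SE), a 3.15-fold higher level with a 95% interval of 0.98 to 2.33 on the log2 scale (adjusted p = 0.336), and the difference was 1.65 at 2 weeks and 1.66 at 14 weeks.

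Camk1d, a calcium- and calmodulin-dependent protein kinase, read 6.56, 6.998, 7.14, 7.15 and 6.83 in CHOW, 9.80, 8.30, 7.77, 7.19 and 8.42 in 2w-WD, and 8.70, 8.98, 9.10, 8.69 and 8.94 in 14w-WD. Here too the groups did not overlap, although 2w-WD replicate 4 stood only just above the highest CHOW array. The pooled difference was 1.65 ± 0.32 (SE; adjusted p = 0.336), with 1.36 at 2 weeks and 1.94 at 14 weeks.

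Plpp6, which encodes a phosphatase of isoprenoid and other lipid phosphates, showed the same order. It read 5.66, 6.49, 6.45, 6.48 and 6.64 in CHOW, 8.70, 7.31, 6.84, 7.24 and 7.69 in 2w-WD, and 7.82, 7.53, 8.85, 8.22 and 8.21 in 14w-WD, with no overlap. Its pooled difference was 1.50 ± 0.29 (SE; adjusted p = 0.336). Gart, Camk1d and Plpp6 were the 3 genes (0.0252% of those tested) for which every western diet array exceeded every CHOW array. The arrays can be assigned to groups of these sizes in 3003 ways. Random assignment would give this order for no smaller a share of genes.

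Cxcl13, a chemokine that attracts B cells, came next. Its CHOW arrays read 6.23, 6.11, 6.43, 5.22 and 5.78, those of 2w-WD 6.85, 7.70, 7.95, 8.05 and 8.13, and those of 14w-WD 7.28, 9.11, 6.98, 6.23 and 7.18. One western diet array, 14w-WD replicate 4, fell among the CHOW values. The pooled difference was 1.59 ± 0.36 (SE; adjusted p = 0.766), 1.78 at 2 weeks and 1.40 at 14 weeks.

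**Figure D1:**
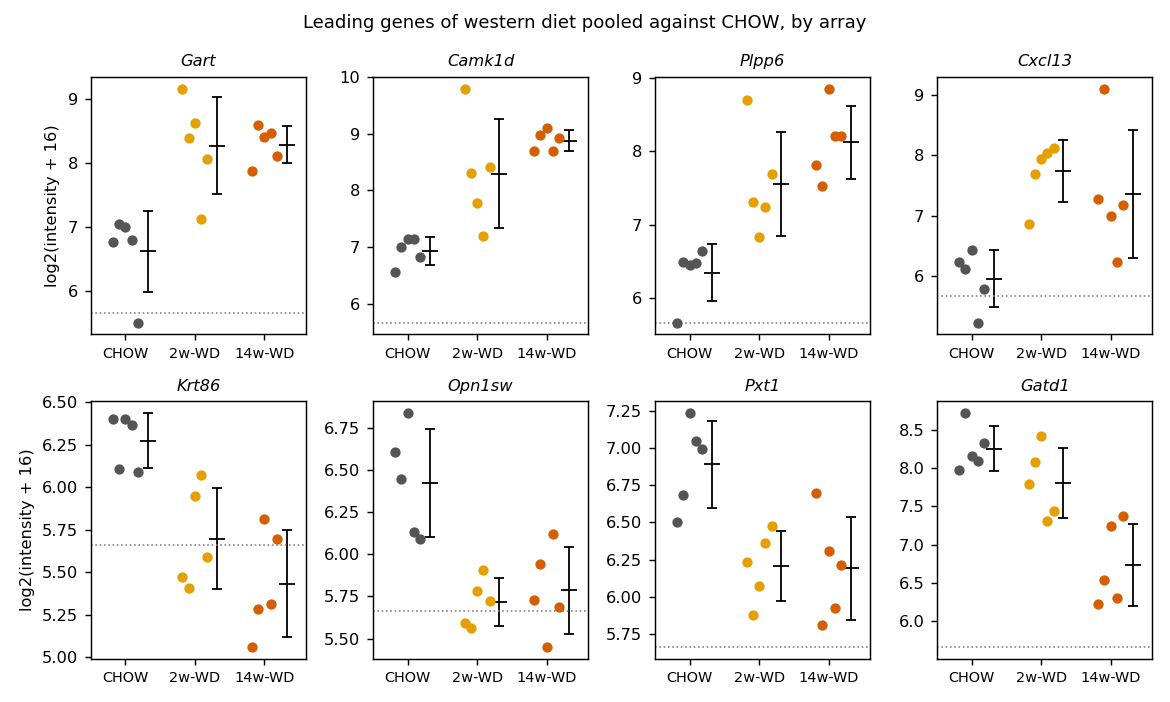
Level on each array, as log2(intensity + 16), of the 4 leading higher genes (top) and the 4 leading lower genes (bottom) of the pooled comparison; points are arrays, the bar beside them is the group mean with 1 SD (n = 5), and the dotted line is the filter level of 5.66. For Gart, Camk1d, Plpp6 and Krt86 no western diet array overlaps a CHOW array, which random assignment of the arrays would also give for some genes. The levels of Krt86 and Opn1sw lie close to the filter.

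The other 8 of the 12 leading higher genes had pooled log2 differences between 0.59 and 1.90, all with an adjusted p of 0.766. Vps41, a subunit of the complex that tethers vesicles to lysosomes, differed by 1.36 ± 0.32 (SE). Cpox, an enzyme of heme synthesis, differed by 1.46 ± 0.36. Dnajc2, a ribosome-associated co-chaperone, differed by 1.21 ± 0.31, and Ncbp3, an mRNA cap-binding protein, by 1.26 ± 0.30. The zinc finger gene Zfp677 had the largest of these differences, 1.90 ± 0.44, from a CHOW mean of 4.90 that is itself below the filter level. Ankhd1, an ankyrin repeat protein, had 0.42 at 2 weeks against 1.73 at 14 weeks, and the test of 14w-WD against 2w-WD gave an adjusted p of 0.0181, so its pooled value of 1.08 ± 0.26 averages 2 unlike groups. Aamdc went the other way, with 1.42 at 2 weeks and 0.71 at 14 weeks and a pooled difference of 1.06 ± 0.27, and Proser2 had 0.59 ± 0.15. The next gene after the twelfth was Chil3, at 1.60.

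Among lower genes, Krt86, which encodes a hair keratin, had the smallest p. It read 6.40, 6.10, 6.40, 6.37 and 6.09 in CHOW, 5.47, 5.41, 5.95, 6.07 and 5.59 in 2w-WD, and 5.06, 5.28, 5.81, 5.31 and 5.70 in 14w-WD. The groups did not overlap, but the gap between the highest western diet array and the lowest CHOW array was small beside the spread within groups. The pooled difference was -0.71 ± 0.17 (SE; adjusted p = 0.766). Apart from Krt86, 2 more genes had every western diet array below every CHOW array, both picked out here after their values were seen. They were Egfr, the epidermal growth factor receptor, at -0.52 ± 0.17, and Cyp2c54, a cytochrome P450, at -0.32 ± 0.17. This made 3 such genes (0.0252%), and 6 genes (0.0503%) without overlap in either direction. Random assignment of the arrays would separate the groups in either direction with a probability of 0.000666 per gene. The share seen was no larger than that.

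Opn1sw, the short-wavelength opsin of cone photoreceptors, had 6.61, 6.45, 6.84, 6.13 and 6.09 in CHOW, 5.60, 5.56, 5.78, 5.91 and 5.72 in 2w-WD, and 5.73, 5.95, 5.45, 6.12 and 5.69 in 14w-WD. A single western diet array, 14w-WD replicate 4, reached into the CHOW range, and the pooled difference was -0.67 ± 0.16 (SE; adjusted p = 0.766). Pxt1, a gene known from testis, had 6.50, 6.69, 7.23, 7.04 and 6.99 in CHOW, 6.23, 5.88, 6.08, 6.36 and 6.48 in 2w-WD, and 6.69, 5.81, 6.31, 5.92 and 6.22 in 14w-WD. Only 14w-WD replicate 1 overlapped CHOW there, and the pooled difference was -0.69 ± 0.18 (SE; adjusted p = 0.766).

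Gatd1, a glutamine amidotransferase-like gene and the brightest of the leading lower genes, read 7.98, 8.71, 8.16, 8.09 and 8.33 in CHOW, 7.78, 8.08, 8.41, 7.31 and 7.44 in 2w-WD, and 6.22, 6.54, 7.25, 6.30 and 7.37 in 14w-WD. The 14w-WD arrays were all below CHOW, whereas 2w-WD overlapped it. Its difference was -0.45 at 2 weeks and -1.52 at 14 weeks, and these 2 differed from each other (adjusted p = 0.0336). Hecw2, a ubiquitin ligase, likewise had -0.28 at 2 weeks and -1.18 at 14 weeks (adjusted p = 0.0224).

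The remaining 7 of the 12 leading lower genes had pooled differences from -0.90 to -0.59, all with an adjusted p of 0.766. They included Gnao1, a G protein subunit best known from neurons, at -0.71 ± 0.20 (SE), Etnppl, which breaks down phosphoethanolamine, at -0.81 ± 0.22, and Vmn1r172, a vomeronasal receptor, at -0.59 ± 0.17. Adgre4, of the same adhesion receptor family as Adgre1, was at -0.61 ± 0.18. Mrgprb1, a Mas-related receptor, was at -0.81 ± 0.22, Gata5os at -0.83 ± 0.22 and Skint10 at -0.90 ± 0.27. Just past the twelfth stood Myod1 at -0.75.

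**Figure D2:**
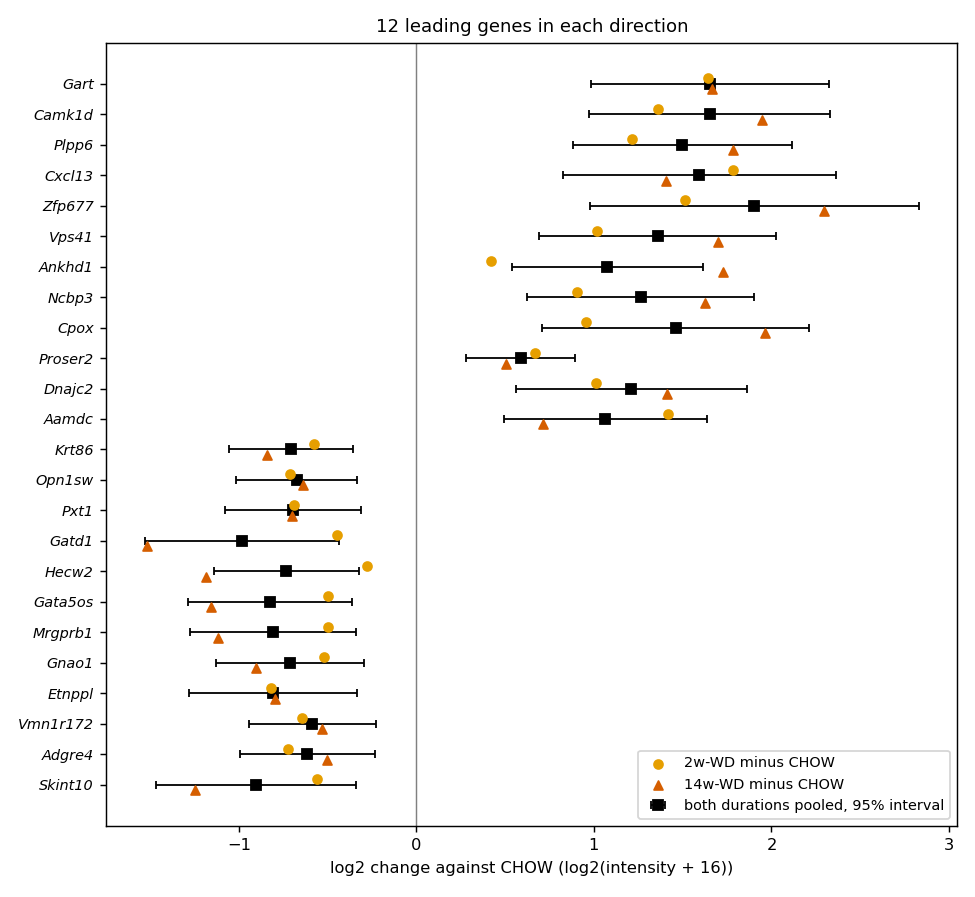
Pooled log2 difference from CHOW (squares, with 95% interval) and the differences of 2w-WD (circles) and 14w-WD (triangles) for the 12 leading genes in each direction, on the log2(intensity + 16) scale. Every interval excludes 0 without adjustment, as the genes were ranked by p, and the durations are far apart for Ankhd1, Gatd1 and Hecw2.

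The leading higher and lower genes differed in brightness. The median of their mean levels was 7.33 for the 12 higher and 6.21 for the 12 lower genes, against 6.96 for all genes tested. A mean level under 7 was found in 4 of the 12 higher genes (33.3%), 11 of the 12 lower genes (91.7%) and 6090 of all tested (51.1%). Gnao1 was below the filter level on 7 of 15 arrays, and Krt86, Hecw2 and Mrgprb1 each on 6. A pooled log2 difference above 1 in size was seen in 158 higher genes (1.32%) and 9 lower ones (0.0755%).

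Other probe sets of the leading higher genes did not show the difference. Of the 12 genes, 7 had further probe sets above the filter level, 11 in all. Their pooled log2 differences ran from -0.58 to 0.32, where the probe sets used for the same 7 genes ran from 1.08 to 1.65. For Gart the 2 others gave 0.29 and -0.02, for Camk1d 0.14 and 0.04, for Vps41 -0.06 and -0.01, and for Dnajc2 0.12 and -0.58. The single other probe set gave 0.04 for Cxcl13, 0.32 for Ankhd1 and -0.18 for Cpox. None of the 11 was higher at an unadjusted p under 0.05, and 1 was lower. Averaging all probe sets of a gene lowered the pooled difference to 0.45 for Gart, 0.61 for Camk1d, 0.54 for Plpp6 and 0.19 for Dnajc2, and moved that of Adgre4 to -0.18. Of the 21 leading genes still tested with that average, 18 kept an unadjusted p under 0.05, the exceptions being Gart, Dnajc2 and Adgre4. However, 2 higher and 7 lower leading genes have a single probe set, so that their difference could not change. For the rest the average includes the probe set used. In the lower set, the 1 further probe set above the filter, of Adgre4, was at 0.26 against -0.61. Which parts of the transcripts the probe sets read was not analysed here.

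**Figure D3:**
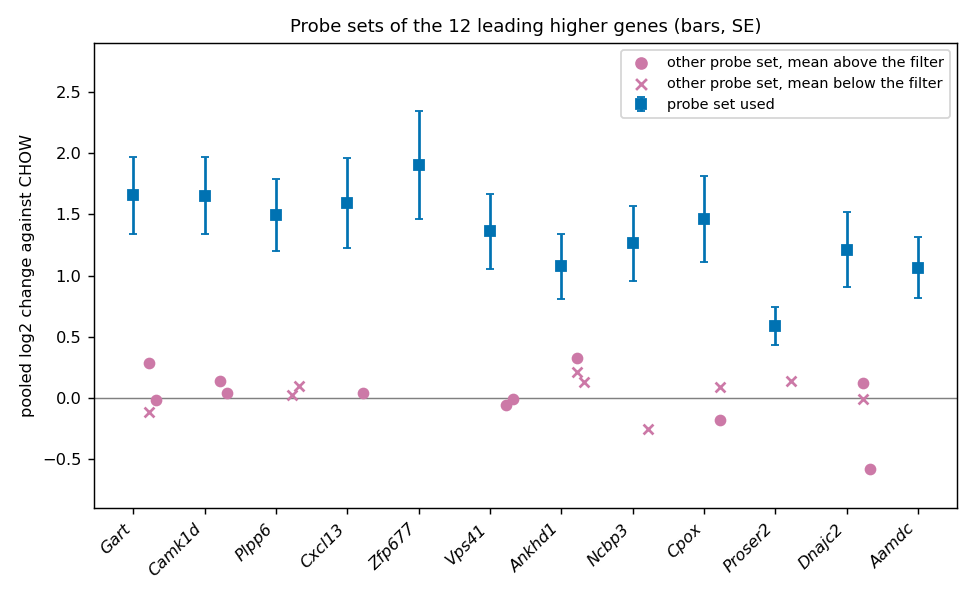
Pooled log2 difference from CHOW of the probe set used (blue squares, with 1 SE) and of all other probe sets (pink) of the 12 leading higher genes, circles where the mean level is at or above the filter and crosses where it is below. The probe sets used lie between 0.59 and 1.90, and the 11 others above the filter between -0.58 and 0.32.

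A stricter set required the same side and an unadjusted p under 0.05 at both durations. It held 68 higher genes (0.57%) and 38 lower genes (0.319%). Beside leading genes such as Cxcl13 it contained the chemokine Ccl4, the eosinophil-attracting chitinase-like protein gene Chil3 and the interferon-inducible GTPase gene Gm4951, all higher. The sphingomyelin synthase Sgms1 and the mitotic kinesin Kif11 were in it too, both lower. It also contained heart muscle genes, all higher: Myl4 and Myl7, the atrial myosin light chains, and, singled out after their values were seen, Sln, Smpx, Trdn and Kcnj5.

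Heart muscle genes had the largest median of any list. Of 18 tested members 17 lay on the same side of CHOW at both durations, 14 higher and 3 lower, against 44.8% of all genes. The members did not move as one: their pooled log2 differences ran from -1.73, the lowest of all genes tested, to 2.75. The median pooled log2 difference was 1.08 (1.28 at 2 weeks, 0.84 at 14 weeks), against 0.01 for all genes. At an unadjusted p under 0.05 there were 4 higher (22.2%, against 3.63% of all genes) and 0 lower, namely Myl7, Myl4, the giant sarcomere protein gene Ttn at 1.75 ± 0.72 (SE) and, named after its value was seen, the sarcomere gene Actn2 at 1.58. The adjusted p was 0.766 for Myl7 and Myl4 and 0.792 for Ttn. Myh6, the atrial and adult mouse cardiac myosin heavy chain, had 0.95 ± 0.52.

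The difference in the atrial light chains lay in 2 CHOW arrays. Myl4 read 12.64, 12.98, 12.29, 6.66 and 6.26 in CHOW, 13.93, 11.11, 13.16, 13.47 and 13.46 in 2w-WD, and 12.38, 12.26, 12.37, 13.65 and 13.35 in 14w-WD. CHOW replicates 4 and 5 were far below the other 13 arrays, and the other 3 CHOW arrays lay within the western diet range. Myl7 behaved alike, with 13.29, 13.25, 12.49, 8.11 and 7.73 in CHOW, 14.00, 12.16, 13.41, 13.59 and 13.57 in 2w-WD, and 12.82, 12.63, 12.65, 13.71 and 13.67 in 14w-WD. Sln, which encodes an atrial inhibitor of the calcium pump, had the largest pooled difference of all, 2.91 ± 1.01 (SE), with CHOW levels of 12.99, 12.60, 12.47, 6.66 and 5.55. Without CHOW replicates 4 and 5 the pooled difference was 0.27 for Myl4, 0.21 for Myl7 and 0.28 for Sln, and the median of the heart muscle list was 0.26. Without CHOW replicate 4 alone that median was 0.33, and without CHOW replicate 5 alone it was 1.29. The size of the list median thus rested on replicate 4 and not on replicate 5.

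**Figure D4:**
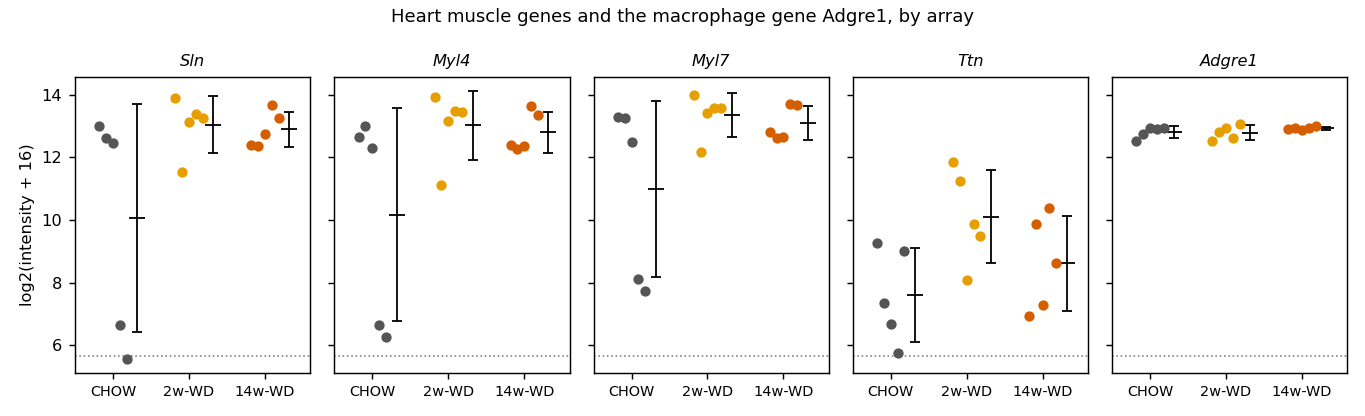
Level on each array, as log2(intensity + 16), of 4 heart muscle genes and of the macrophage gene Adgre1, with the group mean and 1 SD (n = 5) beside the points. CHOW replicates 4 and 5 are far below all other arrays for Sln, Myl4 and Myl7, and Adgre1 is near 12.8 on average in each group.

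The leading genes of the pooled comparison were also examined without those 2 arrays. They had been chosen for a small p on the full set of arrays, so that keeping it in a part of them is largely built in. Leaving out CHOW replicates 4 and 5 gave 0 passing genes, and all 24 leading genes kept their sign and an unadjusted p under 0.05, with Gart at 1.34, Camk1d at 1.69 and Plpp6 at 1.64. The same held with the mean level of the heart muscle list as a covariate. Leaving out the 3 arrays of lowest array weight, CHOW replicate 1 and 2w-WD replicates 1 and 4, was the only setting in which genes passed. These were 2 genes, both higher and on the same side at both durations: Camk1d at 1.49 ± 0.21 (SE; adjusted p = 0.0314) and Mir22hg, the host gene of a microRNA, at 1.50 ± 0.19 (adjusted p = 0.0221), which was named after its value was seen and stood at 1.05 ± 0.39 (adjusted p = 0.769) on all arrays. Of these arrays, CHOW replicate 1 read 7.45 for Mir22hg, where the next CHOW array read 4.97.

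The lists that follow are described by counts. Among all 11925 genes, 6157 were above and 5768 below CHOW in the pooled mean. At both durations 24.6% were above and 20.2% below it, while 3.63% were higher and 2.46% lower at an unadjusted p under 0.05. The median log2 difference of all genes was 0.01 pooled, -0.10 at 2 weeks and 0.16 at 14 weeks. List medians at each duration are to be read beside these values. Of the chemokines and their receptors, which guide leukocytes into lesions, 18 were tested, 14 were above CHOW in the pooled mean, and 10 were above and 1 below it at both durations. The median was 0.37, and 3 were higher at an unadjusted p under 0.05 (16.7%, against 3.63% of all genes). These were Cxcl13, Ccl4, which attracts monocytes and T cells, at 0.68 ± 0.20 (SE), and Cxcl9, an interferon-gamma-inducible attractant of T cells, at 1.10 ± 0.51. None passed adjustment. Among 19 cytokine and NF-kB genes 4 were above and 2 below at both durations, with a pooled median of -0.06 (-0.19 at 2 weeks and 0.24 at 14 weeks). Il1rn, the interleukin-1 receptor antagonist, had the smallest p there, but its pooled -0.67 ± 0.31 came from 2 weeks (-1.63) and not from 14 weeks (0.30). The 18 Toll-like receptor genes had a pooled median of -0.11, with -0.12 at 2 weeks and 0.39 at 14 weeks. Their pooled median was 0.12 without CHOW replicate 1.

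No interferon-inducible gene of the lists passed the test. Of 19 genes of the type I response, 11 were above and 3 below CHOW at both durations (24.6% and 20.2% of all genes), and the median was 0.19, with 0.07 at 2 weeks and 0.30 at 14 weeks. Ifit1 and Ifit2, which bind viral RNA, differed by 1.05 ± 0.35 (SE; adjusted p = 0.766) and 1.31 ± 0.55 (adjusted p = 0.801), though Ifit2 stood at 0.09 at 2 weeks and 2.53 at 14 weeks. Rtp4, named after its value was seen, was at 0.91, and Dhx58, an RNA sensor, was lower at -0.44 ± 0.17. The 5 tested guanylate-binding proteins, GTPases that act on intracellular pathogens and a family the study reported on in these samples, so that its direction is not independent evidence, were all above CHOW in the pooled mean and 3 at both durations, with a median of 0.38. Gbp6 and Gbp3 had 0.95 ± 0.35 and 0.94 ± 0.36 (both adjusted p = 0.769), mostly from 14 weeks, where they stood at 1.69 and 1.61 against 0.22 and 0.28 at 2 weeks. The 5 immunity-related GTPases had medians of -0.35 at 2 weeks and 1.13 at 14 weeks, with 1 above and 1 below CHOW at both durations. Irgm2 had -0.50 and 1.35 and Igtp -0.35 and 0.81 at 2 and 14 weeks. Gm4951 was above CHOW at both durations, with 1.24 at 2 weeks, 1.72 at 14 weeks and a pooled 1.48 ± 0.38 (adjusted p = 0.766).

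Antigen presentation was split. The 13 class I genes had a pooled median of 0.05, which was -0.05 with quantile normalization, and the 9 class II genes had a pooled median of -0.02. At 2 and 14 weeks the medians were -0.27 and 0.37 for class I and -0.07 and 0.17 for class II. H2-DMb2, a chaperone subunit that loads peptides onto class II molecules, was the exception by value, at 0.85 ± 0.28 (SE; adjusted p = 0.766), with 0.59 and 1.11 at 2 and 14 weeks, whereas Cd74, the invariant chain, had -0.34 ± 0.43.

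Genes of alternative activation fell into separate groups. Of 13 tested, 5 were above and 5 below CHOW at both durations. Chil3 read 6.46, 4.80, 5.74, 7.05 and 5.97 in CHOW, 8.05, 6.69, 8.91, 7.58 and 8.31 in 2w-WD, and 8.13, 6.51, 7.96, 6.19 and 7.73 in 14w-WD, so that 3 western diet arrays overlapped CHOW. Its pooled difference was 1.60 ± 0.42 (SE; adjusted p = 0.766). Retnla, a secreted protein induced by interleukin-4, differed by 1.26 ± 0.53 (adjusted p = 0.801). The median of the list was 0.47, but -0.05 without the filter on low values and -0.02 with heart muscle as a covariate.

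Genes of cholesterol efflux, uptake and synthesis had pooled list medians near 0, but these average the durations. At 2 and 14 weeks the medians were -0.22 and 0.22 for efflux, -0.15 and 0.06 for uptake, and -0.09 and 0.54 for sterol synthesis. In the test of 14w-WD against 2w-WD, 3 efflux, 0 uptake and 3 sterol synthesis genes passed, all higher at 14 weeks. The 17 genes of cholesterol efflux and the liver X receptors had a pooled median of 0.00, with 2 above and 3 below CHOW at both durations. Abca1 was at 0.19, with a 95% interval of -0.12 to 0.49. Of the 15 uptake receptors 4 were above and 4 below at both durations, and Cd68 was at -0.42 (95% interval -1.02 to 0.18). In sterol synthesis, 15 genes had a pooled median of -0.06, and Sqle, which makes squalene epoxide, had -0.51 ± 0.24 (SE; adjusted p = 0.817). Of 14 genes of fatty acid synthesis 7 were above and 1 below at both durations, with a median of 0.14, and 17 lipid droplet and triglyceride genes had 9 above, 1 below and a median of 0.25. Gpat3, an enzyme at the start of triglyceride synthesis, had 1.16 ± 0.55 (adjusted p = 0.82). With heart muscle as a covariate the lipid droplet median was -0.01. Adipocyte markers, which share Cidec and Fabp4 with that list, had summed intensities of 5872 to 10827 in CHOW, 5159 to 23518 in 2w-WD and 6064 to 15019 in 14w-WD. The mean level of both lists was highest on 2w-WD replicate 1, at 10.44 for lipid droplets and 9.93 for adipocyte markers, and the part of these markers in the lipid droplet values was not tested.

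Lysosomal genes showed how pooling hides the durations. Of 26 tested, 22 were below CHOW in the pooled mean (median -0.18), yet only 3 were below and 3 above at both durations. The median was -0.49 at 2 weeks and 0.14 at 14 weeks, against -0.10 and 0.16 for all genes. Of the 26, 11 passed the test of 14w-WD against 2w-WD, all higher at 14 weeks, as did 10.1% of all genes. Lipa, which encodes the acid lipase of lysosomes, had -0.61 at 2 weeks and 0.00 at 14 weeks. The 17 genes of lipid-associated macrophages had 14 below CHOW in the pooled mean and 2 above and 0 below at both durations. Of 16 integrins 13 were below CHOW in the pooled mean and 6 at both durations (20.2% of all genes), with 0 above at both. Their median was -0.17, with -0.36 at 2 weeks and 0.04 at 14 weeks. The lowest p was that of Itgb5, a subunit of a vitronectin receptor, at -0.32 ± 0.15 (SE; adjusted p = 0.815).

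Of 22 sphingolipid enzymes 2 were lower at an unadjusted p under 0.05, against 2.46% of all genes, and the list median was -0.10. Sgms1 was alike at both durations, at -0.63 and -0.52, with a pooled -0.57 ± 0.20 (SE; adjusted p = 0.766). Sptlc2, a subunit of the enzyme that begins sphingolipid synthesis, had -1.47 at 2 weeks and 0.00 at 14 weeks. In the unfolded protein response 22 genes had a pooled median of 0.00, made of -0.28 at 2 weeks and 0.36 at 14 weeks. Of these genes 5 passed the test of 14w-WD against 2w-WD, all higher at 14 weeks. Creld2, a protein of the endoplasmic reticulum, had a pooled -0.94 ± 0.30 (adjusted p = 0.766). Fos, an immediate early transcription factor, had -0.65 ± 0.25 (adjusted p = 0.776), in a list of 17 with 2 above and 3 below at both durations. The pooled median of that list was -0.01, made of -0.26 at 2 weeks and 0.35 at 14 weeks.

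Respiratory chain genes had like medians at both durations. Of 22 tested, 20 were above CHOW in the pooled mean and 12 at both durations, with 0 below at both. The medians were 0.21 pooled, 0.22 at 2 weeks and 0.18 at 14 weeks, and 0 were at an unadjusted p under 0.05. For all genes the medians were 0.01, -0.10 and 0.16, so that the value at 14 weeks lay close to that of all genes. Uqcrb and Cox6c, subunits of respiratory complexes, both had 0.45, with standard errors of 0.22 and 0.24. The list's median was 0.09 without CHOW replicate 4, 0.25 without CHOW replicate 5 and 0.16 without both. With heart muscle as a covariate it was -0.07. Heart muscle is rich in these transcripts, and its part in the values of this list was not tested.

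Of 22 cell cycle genes 7 were above and 1 below CHOW at both durations (24.6% and 20.2% of all genes). Their pooled median was 0.15, made of -0.10 at 2 weeks and 0.62 at 14 weeks. At an unadjusted p under 0.05, 3 were higher (3.63% of all genes), of which the first by p were Rrm2, which supplies deoxynucleotides, at 0.68 ± 0.27 (SE; adjusted p = 0.792) and Top2a, a topoisomerase, at 0.64 ± 0.26 (adjusted p = 0.792), and the other was the cyclin gene Ccna2 at 0.72, named after its value was seen. Kif11 was lower, at -0.77 ± 0.29 (adjusted p = 0.769). In the circadian list Dbp, an output gene of the clock, had 0.39 ± 0.15 (adjusted p = 0.769), with a median of 0.14 over 13 genes. The lists of efferocytosis and complement, antioxidant and heme genes, glycolysis and hypoxia, matrix remodelling, mucin-type glycosyltransferases and the BCL2 family had pooled medians from -0.08 to 0.06. Each had a median below CHOW at 2 weeks and above it at 14 weeks. These were -0.45 and 0.50 for the glycosyltransferases, -0.45 and 0.20 for matrix remodelling, and -0.18 and 0.35 for the BCL2 family. In the test of 14w-WD against 2w-WD, 6 of 12 glycosyltransferases and 4 of 14 BCL2 family genes passed. All were higher at 14 weeks, as were 10.1% of all genes. With quantile normalization the pooled median turned from 0.02 to -0.07 for the glycosyltransferases and from 0.03 to -0.01 for the BCL2 family.

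Pooling also averaged genes that differed between the durations. Galnt7, a mucin-type glycosyltransferase gene, had a pooled 0.73 ± 0.19 (SE), made of -0.17 at 2 weeks and 1.63 at 14 weeks. These differed from each other with an adjusted p of 0.0022 in the test of 14w-WD against 2w-WD. Panx1, a channel that releases ATP, had -1.15 and 0.54 with the same adjusted p, and a pooled -0.31 ± 0.19. The other probe sets of Galnt7, both above the filter, gave pooled differences of 0.07 and -0.02.

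Markers of the other cell types that the capture could hold had pooled medians between -0.22 and 0.37, apart from heart muscle. They were -0.07 for macrophage, -0.22 for smooth muscle, -0.13 for endothelium, -0.04 for fibroblast, 0.07 for cartilage, 0.04 for T and NK cell (-0.01 with quantile normalization), -0.03 for B cell, -0.08 for dendritic cell, 0.10 for neutrophil and 0.37 for adipocyte genes, which were at -0.21 without the 3 arrays of lowest weight. Of the 2 erythroid genes tested, Gata1 had -0.05 and Slc4a1 -0.04. The smooth muscle list had 4 genes below and 2 above at both durations, with Myh11 at -0.56 ± 0.23 (SE; adjusted p = 0.792) and Acta2 at -0.33 (95% interval -0.67 to 0.01).

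**Figure D5:**
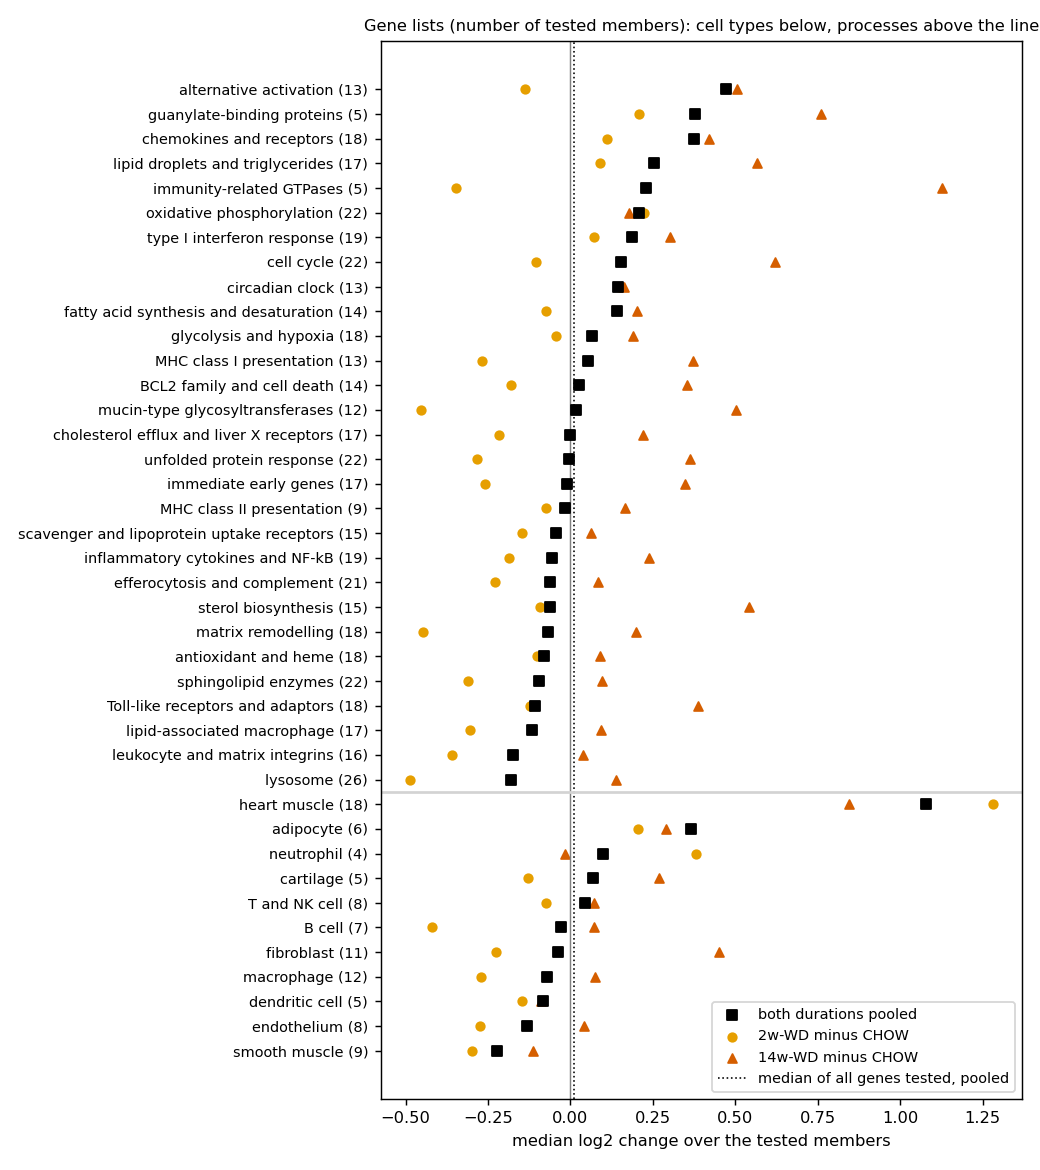
Median log2 difference from CHOW over the tested members of each list with 3 or more, pooled (squares), at 2 weeks (circles) and at 14 weeks (triangles); the dotted line is the pooled median of all genes tested (0.01), with cell type lists below the grey line and process lists above it. Heart muscle stands farthest to the right at 1.08, oxidative phosphorylation and the circadian clock have their 3 medians close together, and the lysosome list lies at -0.49 and 0.14 at 2 and 14 weeks.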

How the data were processed

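RNA of laser-captured foam cells was amplified, biotin-labelled and hybridised to Affymetrix mouse arrays, per the labels' protocols. The deposited table holds linear intensities for 45037 probe sets, with array medians of 31.7 to 38.2; summarisation and normalisation are not given in the sources used here. The deposited values were turned into log2(intensity + 16). Probe sets with 1 gene (34945; 932 had several, 9160 none) were used, the brightest per gene. Lists and members were chosen with earlier results of these data known.

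limma 3.58.1 in R 4.3.3 (lmFit and eBayes with trend, 3 groups, 15 arrays) gave two-sided tests adjusted over 11925 genes. It was tested on simulated data. No block was used for replicate numbers, and a fit with one is given among the alternatives. Over 15 same-number pairs of arrays the correlation of deviations from group means ran from -0.166 to 0.477. Its median was 0.087, against -0.024 for pairs of unlike number, so that a weak pairing by number may exist. The number of arrays limits the precision.

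Named were 12 same-side genes per direction by the smallest p (clone names skipped), up to 3 genes per list by p, and Apoe, Adgre1, Cd68, Abca1, Galnt7, Panx1, Acta2 and Myh6. Alternatives changed the pseudocount, filter, normalization, probe set rule, weights, covariates, block, trend and arrays.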

Additional observations from a re-analysis of the deposited data

Results flagged for a closer look

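The levels of the 152 named genes and the share of bright probe sets were examined in each group of 5 arrays. Of these 459 groups, 36 (7.84%) had 1 array set apart from the other 4, with a gap of more than 0.71 of the group's range. Chance alone sets about 1 in 20 such groups apart. The values below are log2 levels.

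CHOW replicate 1 stood apart for Plpp6 (5.66), Abca1 (11.72), Igtp (7.78), Calr (11.95), Psmb9 (7.15), Fabp5 (14.03), Egln3 (5.53) and Mir22hg (7.45). 14w-WD replicate 4 stood apart for Acta2 (12.33), Psmb9 (5.14), Tlr3 (6.19), Stab1 (7.77), Vwf (10.31) and Lep (4.26). CHOW replicate 5 stood apart for Gart (5.51), Nfkbie (6.29), Tfe3 (9.68), C1qa (7.97) and Fabp4 (13.10). 2w-WD replicate 1 stood apart for Ncbp3 (7.38), Fabp5 (14.38), Bak1 (7.87) and Ighm (10.85). 2w-WD replicate 4 stood apart for Psmb9 (6.16), Folr2 (5.39), Lipa (12.17) and Adam17 (5.39). CHOW replicate 4 stood apart for Dnajc2 (7.65) and Myh6 (9.98). 2w-WD replicate 3 stood apart for Nos3 (5.62) and Sox9 (4.37). 2w-WD replicate 5 stood apart for Acta2 (13.38). 14w-WD replicate 1 stood apart for Fabp5 (14.37). CHOW replicate 2 stood apart for Vwf (13.02). 2w-WD replicate 2 stood apart for Myl4 (11.11). 14w-WD replicate 5 stood apart for Slc4a1 (6.42).

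The differences from CHOW at 2 and 14 weeks were themselves different for 29 of the 152 named genes (19.1%, against 11.2% of all genes tested), at an adjusted p under 0.05 of limma's test of 14w-WD against 2w-WD. By that test their pooled values average unlike groups, although 0 genes passed with the share of bright probe sets in the fit. The lists were chosen with earlier results of these data known, and Galnt7 and Panx1 were named in any case. The 2 shares are therefore no fair comparison. The log2 level was higher at 14 weeks by 1.31 for Ankhd1, 1.80 for Galnt7, 1.69 for Panx1, 1.47 for Gbp6, 1.33 for Gbp3, 1.85 for Irgm2, 2.44 for Ifit2, 1.94 for Il1rn, 0.89 for Il18, 1.45 for Folr2, 1.41 for Cyp51, 1.47 for Sptlc2, 1.36 for Cers6, 0.61 for Lipa, 2.39 for Gusb, 0.55 for Ctsd, 1.32 for Manf, 0.48 for Gpx1, 1.33 for Top2a, 1.99 for Atf3, 1.21 for Galnt4, 1.37 for Bak1, 0.70 for Nos3, 1.64 for Fbln1 and 1.54 for Bst2. It was lower at 14 weeks for Gatd1 (-1.07), Hecw2 (-0.91), Hlf (-1.38) and Lep (-0.84).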

How the results depend on the processing

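The pooled comparison gave 0 genes, and 0 on the same side at both durations, under 29 of 30 alternatives, with smallest adjusted p-values from 0.0572 (array weights) to 0.84; without the 3 arrays of lowest weight, an alternative chosen after seeing the data like that without CHOW replicates 4 and 5, both counts were 2. The 24 leading genes, which were chosen on these same arrays, kept their sign wherever they were tested. The count for 14w-WD against 2w-WD was 3839 with array weights, 2122 with the replicate block, 0 with the share above 100 as covariate and 3175 without the 3 arrays, and leaving out 1 array gave 164 to 3536; the cause was not tested. The replicate block left the pooled count at 0, and 6 of 15 arrays correlated best with an array of their own number. The share of probe sets above 100 kept its direction, with 0.674 to 1.90 percentage points when 1 array was left out. Brightness near background limits the lower genes.

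The pooled log2 differences whose sign reversed were not past the threshold on all arrays or under the alternative, and ran up to 0.45 for Bcl2l11 and 0.36 for Bnip3 and down to -0.62 for Ighm on all arrays. With the share above 100 as covariate, the difference became -0.0486 for Igtp, 0.0192 for Col11a1, -0.026 for Acan, -0.0286 for Sox9, 0.0205 for Gata1 and 0.0309 for Slc4a1. With the mean of all probe sets, the difference became 0.10 for Gpx4, -0.00897 for Bcl2l11, 0.0279 for Ighm and 0.29 for Slc4a1. Without the 3 arrays of lowest weight, the difference became -0.0719 for Sox9, 0.17 for Bst2, -0.10 for Adipoq and 0.00319 for Slc4a1. Without CHOW replicates 4 and 5, the difference became -0.00779 for Igtp, 0.18 for Col11a1 and -0.00626 for S100a8. With heart muscle as covariate, the difference became -0.00665 for Bnip3 and 0.043 for Slc4a1. With array weights, the difference became -0.0124 for Sox9 and 0.16 for Bst2. With quantile normalization, the difference became -0.0122 for Acan. With a pseudocount of 64, the difference became 0.00657 for Bst2. Leaving out 1 array at a time, the range was -0.0271 to 0.0836 for Adgre1, -0.00339 to 0.13 for Fabp5, -0.35 to 0.15 for Col11a1, -0.0199 to 0.19 for Acan, -0.0475 to 0.23 for Sox9, -1.19 to 0.37 for Ighm, -0.20 to 0.14 for Bst2, -0.0509 to 0.30 for S100a8, -0.11 to 0.0283 for Gata1 and -0.11 to 0.0312 for Slc4a1.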
